A study of Homo sapiens with 6 samples.

Results

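The genes described here are 33 genes of cholesterol and fatty acid synthesis, chosen by symbol as a list of genes that the sterol-sensing transcription factors SREBP1 and SREBP2 are known to drive or that sense, move or export cholesterol. All 33 were found among the 24462 gene symbols of the count files, each in a single row, and all 33 were among the 16314 genes that passed the filter on low counts. They were measured by RNA-seq in PC3 cells, a human prostate carcinoma line established from a metastasis in bone and grown in RPMI1640 with heat-inactivated fetal bovine serum. A total of 3 cultures had received a non-targeting siRNA (si-Control) and 3 a CITED2-targeting siRNA (si-CITED2), both at 80 nM for 72 h. CITED2 is a transcriptional co-regulator that binds CBP and p300, and the comparison asks how its knockdown changed gene expression. The methods list a single CITED2 siRNA sequence and a single control sequence, so the comparison is between those 2 transfections of 1 cell line.

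Cholesterol is built from acetyl-CoA through mevalonate, farnesyl diphosphate and squalene, and fatty acids from acetyl-CoA through malonyl-CoA. Both routes are controlled by SREBP proteins, which are held in the endoplasmic reticulum by SCAP and INSIG when sterols are plentiful and are cut and sent to the nucleus when sterols are scarce. Oxidized sterols, which accumulate when cholesterol is in excess, instead activate the nuclear receptors LXRα and LXRβ, and these raise cholesterol export through ABCA1. Prostate cancer cells are known for a high rate of lipid synthesis.

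The 6 libraries held 19508925 to 28936374 counts, and the 33 genes together took 0.246% to 0.262% of them. Their raw counts ranged from 112 to 13946 per gene and library, well above the floor of 3 counts. The epithelial markers KRT8, KRT18 and EPCAM were abundant in every library, with at least 1735 counts. PECAM1 had at most 11 counts, and KLK3 and PTPRC at most 2. COL1A1, a gene of mesenchymal cells, had 99 to 166 counts. The targeted gene went against its label. CITED2 mRNA had 858.6, 892 and 773 normalized counts in the si-Control libraries and 1084, 921.1 and 983.9 in the libraries labelled si-CITED2, so all si-CITED2 values were the higher ones. The log2 fold change of CITED2 was 0.24 (SE 0.0744, adjusted p = 0.0363, edgeR), and the exact two-sided permutation test gave p = 0.1, the smallest that 3 against 3 allows. The call was lost without si-Control replicate 1 (0.25, adjusted p = 0.0536), si-Control replicate 3 (0.18, adjusted p = 0.141), si-CITED2 replicate 1 (0.17, adjusted p = 0.154) and si-CITED2 replicate 3 (0.25, adjusted p = 0.0846). Every direction given here is therefore that of the libraries labelled si-CITED2 against those labelled si-Control, and a lowered CITED2 mRNA was not seen in them. The study checked CITED2 knockdown by immunoblotting the protein, which the count files do not hold. Whether labels or files of the groups were exchanged was not tested, and an exchange would turn every direction given here.

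The 33 genes did not move as a block. Of them, 7 were higher and 2 were lower in the libraries labelled si-CITED2 at an adjusted p under 0.05, and 24 did not pass. The share called was 27.3%, against a background of 17.4% of all 16314 fitted genes. All 33 genes had at least 112 counts in each library. The fitted genes also include sparsely counted ones, such as ABCA10 (mean log2 CPM -0.68, SE 0.397), which are harder to call. No share set against all fitted genes here was matched for counts, so a higher share may reflect depth, which was not tested. The higher calls were 21.2% of the genes against 9.36% of all fitted genes, and the lower calls were 6.06% against 8.09%. Log2 fold changes lay above 0 in 17 genes and below 0 in 16, with a median of 0.004 beside -0.001 over all fitted genes. The 3 libraries of each group did not overlap in 12 genes that were higher, against 16.4% of all fitted genes, and in 3 that were lower, against 16.1% of all fitted genes. The genes that rose were ABCA1, NSDHL, SCD, SQLE, FADS2, IDI1 and CYP51A1, and those that fell were ELOVL6 and EBP. The count of 2 lower genes became 1 without si-CITED2 replicate 1, where ELOVL6 and EBP were both lost and FASN passed instead. It was 0 without any one of si-Control replicates 1 and 2 and si-CITED2 replicates 2 and 3.

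**Figure D1:**
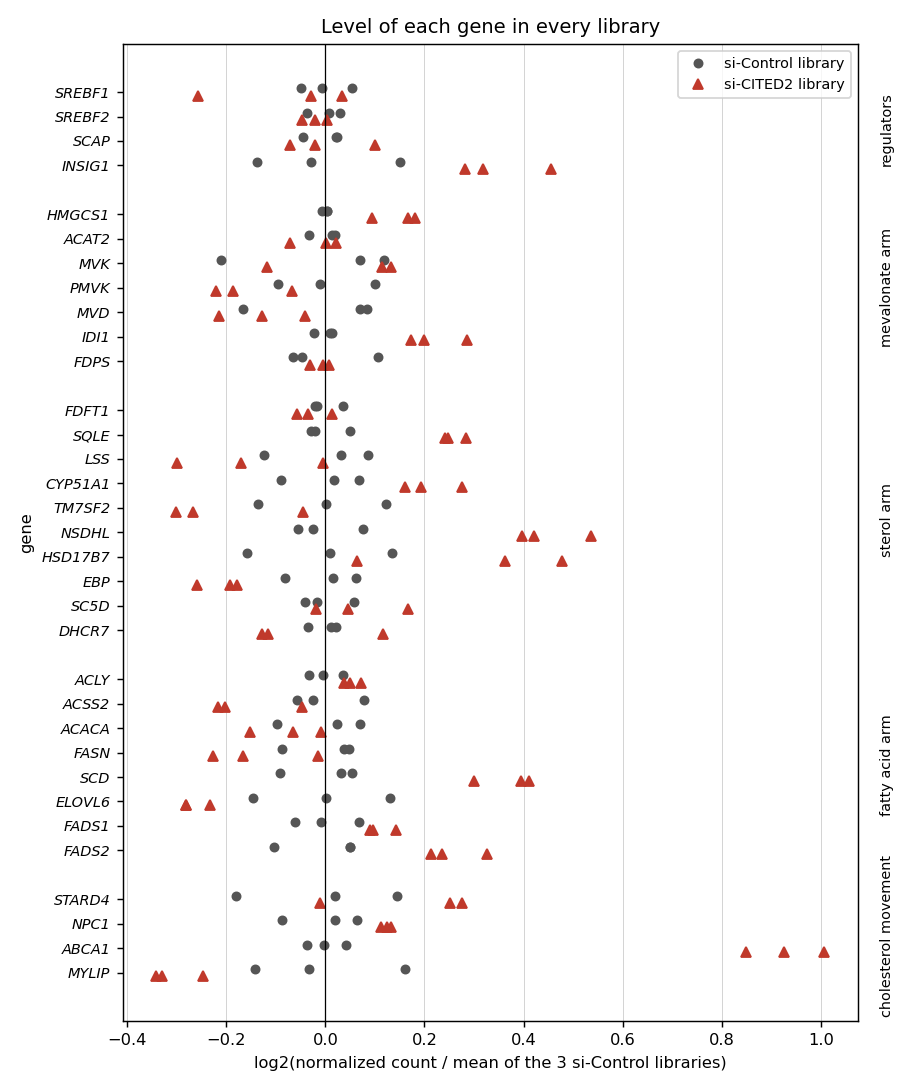
Level of each of the 33 genes in every library, as log2 of the normalized count over the mean of the 3 si-Control libraries; circles are si-Control and triangles si-CITED2 libraries, and genes are ordered by role. The ABCA1 triangles stand farthest to the right, and those of MYLIP lie left of every MYLIP circle.

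The regulators were considered first. SREBF2, which encodes the SREBP that mainly drives cholesterol synthesis, had 2195, 2096 and 2164 normalized counts in the si-Control libraries and 2084, 2122 and 2157 in the si-CITED2 libraries. These ranges overlapped, with a log2 fold change of -0.02 (95% interval -0.128 to 0.087). SREBF1, which encodes the SREBP more closely tied to fatty acid synthesis, had 671, 720.6 and 690.7 against 710.3, 680.3 and 580.7 normalized counts. Its log2 fold change was -0.08 (95% interval -0.249 to 0.088), and its lowest value came from si-CITED2 replicate 3. SCAP, the escort of both precursors, had 1134, 1082 and 1135 against 1197, 1101 and 1063, a log2 fold change of 0.004 (95% interval -0.129 to 0.136). The intervals of SREBF2 and SCAP were thus narrow on both sides of 0.

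INSIG1 differed from the other regulators in its size of change. It encodes a protein that retains SCAP in the endoplasmic reticulum, and it is itself a target of SREBP. It had 142.2, 161 and 131.8 normalized counts with si-Control and 180.9, 198.7 and 176.4 with si-CITED2, so that the groups did not overlap. The log2 fold change was 0.35 (SE 0.128, 95% interval 0.078 to 0.621), but the adjusted p of 0.0736 missed the threshold. Within each library, the ratio of INSIG1 to SREBF2 counts was 0.0675 ± 0.0083 in si-Control and 0.0874 ± 0.006 with si-CITED2 (SD, n = 3; exact two-sided permutation p = 0.1, the smallest possible). INSIG1 alone already separated the groups, and SREBF2 varied too little to undo this. The p of the ratio was thus fixed by the choice of pair, and the ratio adds no evidence to the INSIG1 values. None of the 4 regulators passed the test.

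The SREBF2 promoter is shown because it was the only one, among the 29 of 33 genes with a RefSeq promoter window, to hold the sterol regulatory element searched for. That element was spelled TCACNCCAC and searched on both strands in the window from 250 bases before to 50 after the start of the gene. It was found in 1.13% of all 35116 windows of that length. Only this spelling was searched, so a window without it may still hold a sterol regulatory element spelled otherwise or lying outside the window. The SREBF2 window lies at chr22:41832855-41833154 on the plus strand (RefSeq, GRCh38.p14), and the capitals mark the element, whose first base is 133 bases before the start, and a CCAAT box on the reverse strand (ATTGG) 106 bases before it.
SREBF2: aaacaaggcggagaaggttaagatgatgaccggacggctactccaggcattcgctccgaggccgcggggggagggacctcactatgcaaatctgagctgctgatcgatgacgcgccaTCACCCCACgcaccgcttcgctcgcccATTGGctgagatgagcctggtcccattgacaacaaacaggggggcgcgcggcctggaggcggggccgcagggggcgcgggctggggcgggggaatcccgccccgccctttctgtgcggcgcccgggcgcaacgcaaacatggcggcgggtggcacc
CCAAT boxes, the sites of the factor NF-Y, were present in 62.1% of the 29 windows, against 34.6% of all windows and 36.1% of those of fitted genes. GGGCGG, the core of the Sp1 site, was present in 93.1% against 45% of all windows and 67.6% of those of fitted genes. For the 8 genes with more than 1 window, the first one listed was used. These matches describe the letters only. SREBF2, with the element in its window, was among the genes with the smallest change.

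In the mevalonate arm, which turns acetyl-CoA into farnesyl diphosphate, 1 of 7 genes rose, none fell and 6 did not pass, with a median log2 fold change of -0.01. The share called was 14.3%, against 17.4% of all fitted genes. IDI1, the isopentenyl diphosphate isomerase, had 615, 599 and 613 normalized counts with si-Control and 686.1, 699.4 and 742.8 with si-CITED2. All si-CITED2 libraries lay above all si-Control libraries, with a log2 fold change of 0.22 (SE 0.0682, adjusted p = 0.0339). This call was lost without si-Control replicate 2 (adjusted p = 0.114), si-Control replicate 3 (adjusted p = 0.0642), si-CITED2 replicate 2 (adjusted p = 0.0837) or si-CITED2 replicate 3 (adjusted p = 0.148), and with DESeq2 (adjusted p = 0.0686), while the log2 fold change stayed between 0.19 and 0.24 under all alternatives.

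HMGCS1, the synthase that makes HMG-CoA at the entry of the pathway, had 1285, 1295 and 1295 normalized counts with si-Control and 1464, 1379 and 1451 with si-CITED2. The groups did not overlap, and the log2 fold change was 0.15 (95% interval 0.03 to 0.264, adjusted p = 0.0809), which missed the threshold. The remaining enzymes of the arm overlapped between the groups. PMVK, the phosphomevalonate kinase, had the lowest estimate at -0.15 (95% interval -0.311 to 0.008), followed by MVD, the diphosphomevalonate decarboxylase, at -0.13 (95% interval -0.356 to 0.104). MVK, the mevalonate kinase that precedes them, was at 0.04 with a wide interval (-0.248 to 0.318) and only 143.5 to 181.9 normalized counts. ACAT2, the cytosolic acetoacetyl-CoA thiolase, was at -0.02 (95% interval -0.136 to 0.101). FDPS, the farnesyl diphosphate synthase, was at -0.01 (95% interval -0.121 to 0.102).

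FDPS had the highest level per length of the 33 genes, with 3310 normalized counts per kilobase of annotated exon in si-Control and 3290 with si-CITED2. ACLY followed at 2570 and 2670, then SCD at 788 and 1020. The lowest in si-Control were ABCA1 at 34.1 and STARD4 at 36.9. With si-CITED2 STARD4 was the lowest at 41.7, while ABCA1 was at 65, above several other genes. The lengths were taken from GENCODE 29 and not from the annotation behind the counts, so these levels are approximate. FDPS also has near-identical copies, such as FDPSP2, and its exons overlap those of RUSC1-AS1 on the opposite strand. ACAT2 shares exon bases with TCP1 and SOD2 on the opposite strand, and the counting of such reads is not given in the sources used here.

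In the sterol arm, from squalene to cholesterol, 3 of 10 genes rose, 1 fell and 6 did not pass, with a median log2 fold change of 0.02. The share called was 40%, against 17.4% of all fitted genes, and no difference between arms was tested. SQLE, the squalene epoxidase and a rate-limiting step of the arm, had 625.7, 657 and 622.4 normalized counts with si-Control and 754.1, 751 and 773.5 with si-CITED2. SQLE rose by 0.26 on the log2 scale (SE 0.0658, adjusted p = 0.0117), without overlap between the groups, and the call was lost only without si-CITED2 replicate 3 (adjusted p = 0.0529). CYP51A1, the lanosterol 14α-demethylase, had 2463, 2378 and 2209 against 2845, 2686 and 2628 normalized counts. These did not overlap either, with a log2 fold change of 0.21 (SE 0.0557, adjusted p = 0.0152). The CYP51A1 call was lost without si-Control replicate 3 (adjusted p = 0.0725), si-CITED2 replicate 1 (adjusted p = 0.0602) or si-CITED2 replicate 2 (adjusted p = 0.0515).

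NSDHL showed the largest rise among the enzymes of both synthesis routes. It is the dehydrogenase that acts with MSMO1 and HSD17B7 to remove the methyl groups at carbon 4 of the sterol ring. NSDHL had 313.7, 336.5 and 307.1 normalized counts with si-Control and 420.1, 462.5 and 427.3 with si-CITED2, with each si-CITED2 library above each si-Control library. Its log2 fold change was 0.45 (SE 0.0879, adjusted p = 0.00156), a 1.37-fold rise that passed under all alternatives. HSD17B7, the ketoreductase of the same complex, had 205.3, 251.2 and 230.6 against 239.2, 294.3 and 318.8 normalized counts. The groups overlapped, and its log2 fold change of 0.31 missed the threshold (adjusted p = 0.0939), although it passed without si-CITED2 replicate 1 (0.42, adjusted p = 0.0335). HSD17B7 has a near-identical copy, HSD17B7P2, and the division of reads between them is uncertain. MSMO1, the oxidase of the complex, is not one of the 33 genes and was looked up after the values of the others were seen. It had 171.5, 177.1 and 178.8 against 223.4, 234.1 and 215.8 normalized counts, a log2 fold change of 0.35 (adjusted p = 0.0358). That call was lost whichever of the 6 libraries was left out (adjusted p from 0.0567 to 0.126) and with DESeq2 (adjusted p = 0.0841), the replicate block (adjusted p = 0.0544) or no filter on low counts (adjusted p = 0.0508).

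EBP, the sterol isomerase that acts after these 3 enzymes, moved the other way. It had 970.5, 940.3 and 878.9 normalized counts with si-Control and 777.1, 814.1 and 821.7 with si-CITED2, so that all si-CITED2 values were the lower ones. EBP fell by 0.21 on the log2 scale (SE 0.0645, adjusted p = 0.0324). This was a fragile call, lost without si-Control replicate 1 (adjusted p = 0.086), si-Control replicate 2 (adjusted p = 0.103), si-CITED2 replicate 1 (adjusted p = 0.0896), si-CITED2 replicate 2 (adjusted p = 0.0803) or si-CITED2 replicate 3 (adjusted p = 0.0753), and with DESeq2 (adjusted p = 0.0515). The ratio of NSDHL to EBP counts within a library, which no scaling between libraries can change, was 0.323, 0.358 and 0.349 in si-Control and 0.541, 0.568 and 0.52 with si-CITED2. The ratio was thus higher in every si-CITED2 library, by 0.66 on the log2 scale (exact two-sided permutation p = 0.1, the smallest possible). That p was fixed by the choice of pair, because each gene already separated the groups, in opposite directions. It adds no evidence to the single-gene values.

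Both genes lie on the X chromosome, and their promoter windows are shown because these neighbors in the pathway moved in opposite directions while both windows hold several CCAAT boxes, which the capitals mark on either strand (CCAAT or ATTGG). The NSDHL window is chrX:152830813-152831112 and the EBP window chrX:48521558-48521857, both on the plus strand (RefSeq, GRCh38.p14).
NSDHL: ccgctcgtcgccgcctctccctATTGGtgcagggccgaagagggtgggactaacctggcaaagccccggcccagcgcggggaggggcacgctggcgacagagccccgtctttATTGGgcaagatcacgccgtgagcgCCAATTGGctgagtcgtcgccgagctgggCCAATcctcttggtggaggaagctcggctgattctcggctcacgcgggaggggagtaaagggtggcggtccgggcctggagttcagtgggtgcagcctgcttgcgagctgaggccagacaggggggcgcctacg
EBP: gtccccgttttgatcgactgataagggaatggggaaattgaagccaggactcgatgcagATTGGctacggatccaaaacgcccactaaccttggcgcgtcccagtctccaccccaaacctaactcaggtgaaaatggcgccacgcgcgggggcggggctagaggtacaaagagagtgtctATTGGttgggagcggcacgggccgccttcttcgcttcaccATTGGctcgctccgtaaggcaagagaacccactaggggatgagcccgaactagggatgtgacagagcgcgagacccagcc
The NSDHL window holds 5 such boxes, from 228 to 84 bases before the start, and a pair of them overlap. The EBP window holds 3, at 191, 70 and 30 bases before the start.

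The other sterol enzymes did not pass the test. FDFT1, the squalene synthase, was at -0.03 with one of the narrowest intervals (-0.134 to 0.081). LSS, which closes squalene epoxide to lanosterol, was at -0.16 (95% interval -0.341 to 0.031), and TM7SF2, a sterol reductase, at -0.2 (95% interval -0.442 to 0.038). SC5D was at 0.07 (95% interval -0.097 to 0.233) and DHCR7 at -0.04 (95% interval -0.186 to 0.112). The rises at SQLE and CYP51A1 thus lay on either side of LSS, a step at which no change was detected. None was detected either at SC5D and DHCR7, which carry out the last desaturation and the last reduction on the way to cholesterol.

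**Figure D2:**
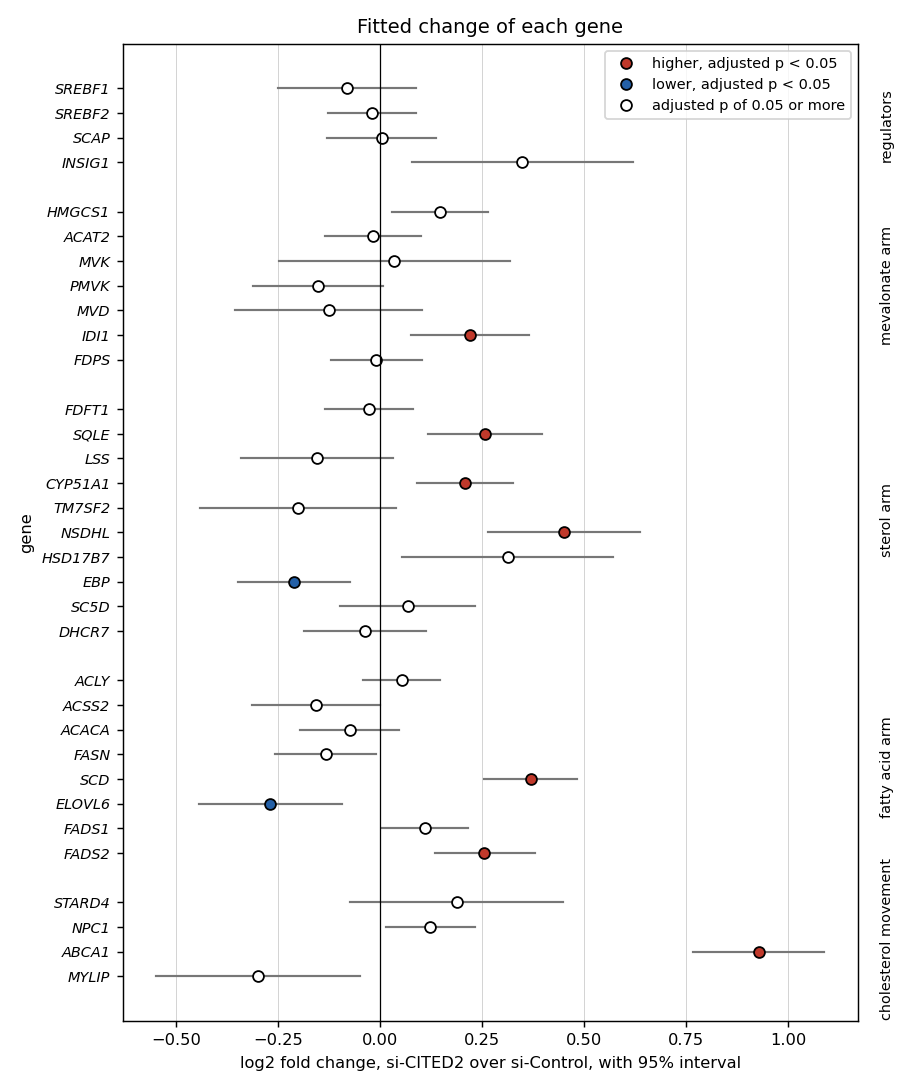
Fitted log2 fold change of each of the 33 genes (si-CITED2 over si-Control) with its 95% interval; filled circles passed an adjusted p of 0.05 (red higher, blue lower) and open circles did not. The interval of ABCA1, 0.767 to 1.089, does not reach that of any other gene, and most open circles have intervals across 0.

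In the fatty acid arm, 2 of 8 genes rose, 1 fell and 5 did not pass, with a median log2 fold change of -0.01. The share called was 37.5%, against 17.4% of all fitted genes. The rises were in the desaturases. SCD, the Δ9-desaturase that makes oleate and palmitoleate, had 3969, 4388 and 4323 normalized counts with si-Control and 5555, 5202 and 5624 with si-CITED2. The groups were well apart, with a log2 fold change of 0.37 (SE 0.0532, adjusted p = 0.000103), a 1.29-fold rise that passed under all alternatives. FADS2, the Δ6-desaturase of polyunsaturated fatty acids, had 2105, 2104 and 1891 against 2549, 2393 and 2356 normalized counts. Its log2 fold change was 0.26 (SE 0.0576, adjusted p = 0.0048), again under all alternatives past the threshold. FADS1, the Δ5-desaturase, had 3805, 3951 and 4163 against 4231, 4247 and 4387. Its groups did not overlap, but the log2 fold change of 0.11 (95% interval 0.005 to 0.216) missed the threshold with an adjusted p of 0.149. FADS1 and FADS2 are neighbors on chromosome 11 and share 142 annotated exon bases on opposite strands, and FADS2 shares 49 with FEN1.

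Among the genes of this arm, the chain-building enzymes ELOVL6, FASN and ACACA were below 0, and only ELOVL6 passed the test. Related enzymes outside the arm went both ways on the log2 scale, and none passed. ELOVL4 (0.23), ELOVL5 (0.16), ELOVL7 (0.17) and ACACB (0.098) were above 0. ELOVL1 (-0.003), ELOVL2 (-0.16) and ELOVL3 (-0.32) were below 0. ELOVL6, which elongates palmitate to stearate, had 635.5, 581.3 and 524.8 normalized counts with si-Control and 494.2, 477.7 and 477.7 with si-CITED2, without overlap. ELOVL6 thus fell by 0.27 on the log2 scale (SE 0.0826, adjusted p = 0.033). This call was lost without si-Control replicate 1 (-0.2, adjusted p = 0.121), si-Control replicate 2 (adjusted p = 0.0885), si-CITED2 replicate 1 (adjusted p = 0.0543), si-CITED2 replicate 2 (adjusted p = 0.104) or si-CITED2 replicate 3 (adjusted p = 0.103). FASN, the fatty acid synthase, had 5140, 5603 and 5644 against 5407, 4867 and 4668 normalized counts, which overlapped. Its log2 fold change was -0.13 (95% interval -0.258 to -0.009, adjusted p = 0.142), and it passed only without si-CITED2 replicate 1 (-0.2, adjusted p = 0.0277). ACACA, the acetyl-CoA carboxylase that makes malonyl-CoA, was at -0.07 (95% interval -0.196 to 0.047). ACSS2, which makes acetyl-CoA from acetate, was at -0.16 (95% interval -0.313 to -0.001, adjusted p = 0.169).

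ACLY, which makes cytosolic acetyl-CoA from citrate for both routes, had by far the most counts of the 33 genes. It had 11550, 11230 and 11020 normalized counts with si-Control and 11660, 11850 and 11560 with si-CITED2. This gave a log2 fold change of 0.05 (95% interval -0.042 to 0.148). The groups did not overlap, yet the difference was small. Within each library, SCD had 0.772, 0.783 and 0.766 counts for each FASN count in si-Control and 1.03, 1.07 and 1.2 with si-CITED2. SCD therefore stood below FASN in all si-Control libraries and above it in all si-CITED2 libraries by raw counts, which are not per length. The log2 ratio moved by 0.51 for SCD to FASN and by 0.63 for SCD to ELOVL6 (exact two-sided permutation p = 0.1 for each, the smallest possible). For SCD to ELOVL6 that p was fixed by the choice of pair, as each gene already separated the groups, in opposite directions. The 5 ratios given here were chosen after the values had been seen.

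The SCD promoter window, chr10:100346983-100347282 on the plus strand (RefSeq, GRCh38.p14), is shown as that of the enzyme with the smallest adjusted p. The capitals mark its 2 CCAAT boxes, 229 and 186 bases before the start.
SCD: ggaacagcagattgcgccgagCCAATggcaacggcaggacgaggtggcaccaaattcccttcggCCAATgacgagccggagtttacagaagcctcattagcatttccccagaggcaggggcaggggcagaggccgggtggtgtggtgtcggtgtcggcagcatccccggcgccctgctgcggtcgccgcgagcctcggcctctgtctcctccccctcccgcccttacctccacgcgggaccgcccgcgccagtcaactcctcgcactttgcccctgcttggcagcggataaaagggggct

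**Figure D3:**
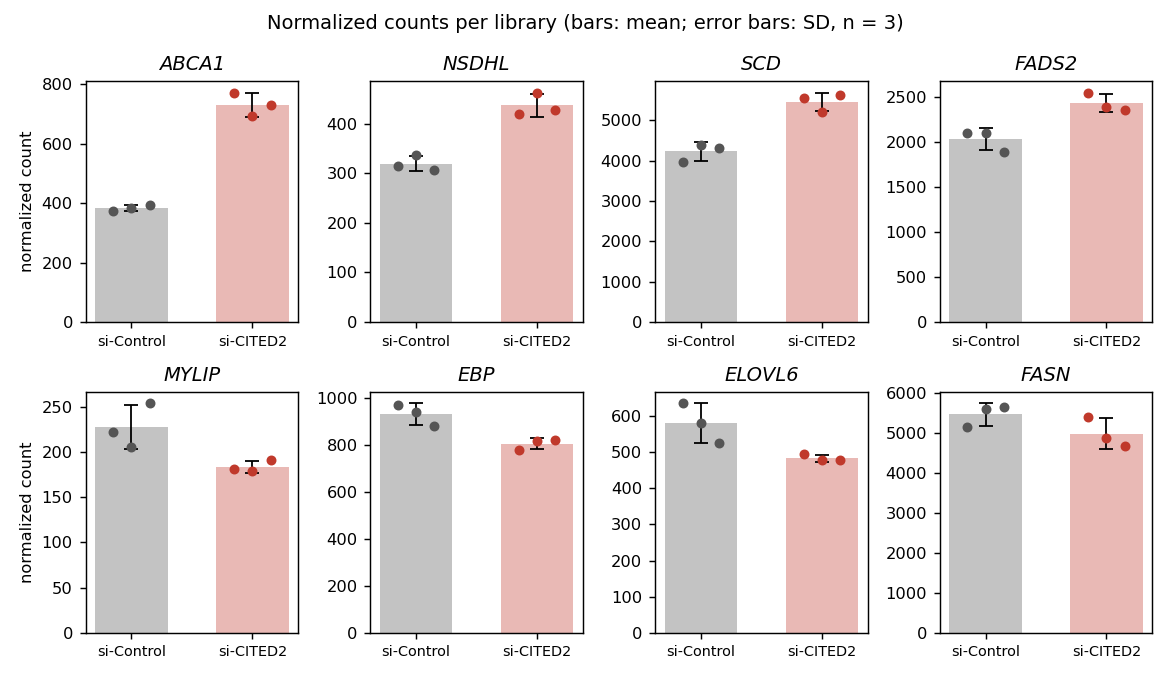
Normalized counts of 8 genes in the si-Control and si-CITED2 libraries, each on its own axis from 0; bars are means, error bars SD (n = 3) and points single libraries. ABCA1, NSDHL, SCD and FADS2 in the upper row are higher in all 3 si-CITED2 libraries, and MYLIP, EBP and ELOVL6 in the lower row are lower in all 3, while FASN overlaps.

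The largest change of the 33 genes was that of ABCA1, the transporter that moves cholesterol and phospholipid out of the cell onto apolipoproteins. ABCA1 had 374.2, 383.2 and 395.3 normalized counts with si-Control and 772.3, 691.8 and 729.7 with si-CITED2. The lowest si-CITED2 library was far above the highest si-Control library. The log2 fold change was 0.93 (SE 0.0761, 95% interval 0.767 to 1.089, adjusted p = 1.67e-07), a 1.9-fold rise, and it ranged from 0.89 to 0.97 over all alternatives.

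ABCA1 is a classical target of LXR, and its promoter window is shown for the receptor's site. The window lies at chr9:104928106-104928405 on the minus strand (RefSeq, GRCh38.p14) and is written in the direction of the gene. A direct repeat of the half-sites GGTNA and GGTCA with 5 bases between them, a DR4 element in the usual count of hexamers, was searched on both strands. It was found in ABCA1 and in no other of the 29 windows, and in 0.239% of all windows. The capitals mark it, read on the reverse strand, with its first base 69 bases before the start, and the E-box CACGTG 147 bases before the start, a motif held by 7.26% of all windows.
ABCA1: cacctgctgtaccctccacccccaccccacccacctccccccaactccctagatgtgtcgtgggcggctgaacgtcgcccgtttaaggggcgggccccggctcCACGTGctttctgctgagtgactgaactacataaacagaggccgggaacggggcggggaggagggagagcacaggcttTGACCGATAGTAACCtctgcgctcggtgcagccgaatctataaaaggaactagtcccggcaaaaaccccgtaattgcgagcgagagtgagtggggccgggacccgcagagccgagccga
The match gives the position of the letters, and binding of a factor to them was not measured here.

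MYLIP, another LXR target, did not follow ABCA1. It encodes the ubiquitin ligase IDOL, which marks lipoprotein receptors for degradation. MYLIP had 222.2, 206.1 and 254.2 normalized counts with si-Control and 180.9, 179.6 and 191.7 with si-CITED2, with every si-CITED2 library lower. The log2 fold change was -0.3 (SE 0.118, 95% interval -0.548 to -0.05), and the adjusted p of 0.0965 missed the threshold. Within each library, ABCA1 had 1.68, 1.86 and 1.56 counts for each MYLIP count in si-Control and 4.27, 3.85 and 3.81 with si-CITED2. The log2 ratio moved by 1.23 (exact two-sided permutation p = 0.1, the smallest possible), and the ratio was higher in every si-CITED2 library than in any si-Control library. Since each gene had already separated the groups, in opposite directions, that p was fixed by the choice of pair.

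NPC1, the lysosomal protein that releases cholesterol taken up with lipoproteins, had 2982, 3311 and 3210 normalized counts with si-Control and 3453, 3424 and 3472 with si-CITED2. The groups did not overlap, but the log2 fold change of 0.12 (95% interval 0.014 to 0.232, adjusted p = 0.118) missed the threshold. STARD4, a soluble sterol carrier, had 207.1, 180.3 and 225.9 against 202.8, 247.5 and 243.2 normalized counts, which overlapped, with a log2 fold change of 0.19 (95% interval -0.073 to 0.449). In this group of 4 genes, ABCA1 was the only call, or 25% against 17.4% of all fitted genes.

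**Figure D4:**
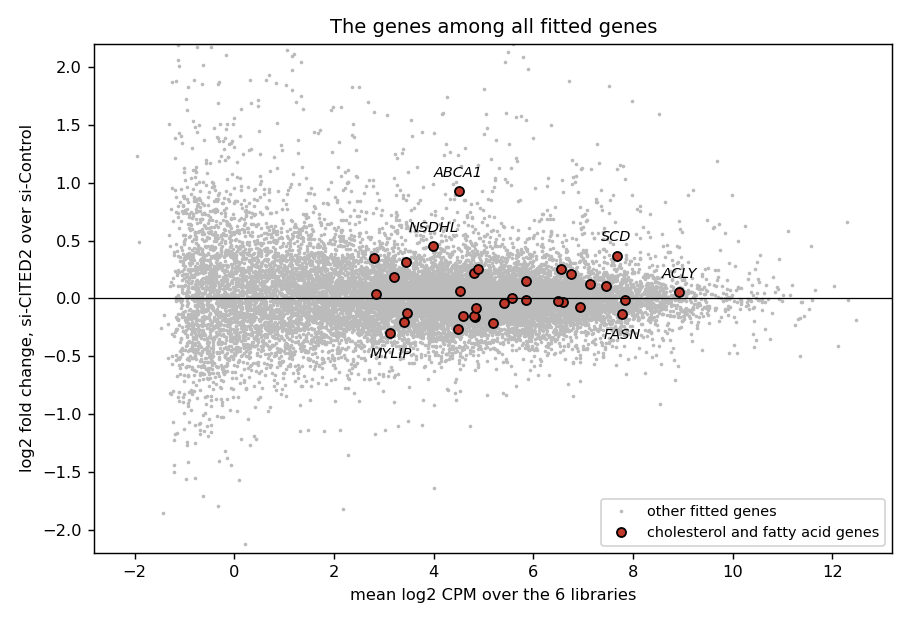
Log2 fold change (si-CITED2 over si-Control) against mean log2 CPM of the 6 libraries for all fitted genes in gray and the 33 genes in red; 56 genes beyond 2.2 on the vertical axis are not drawn. None of the 33 genes had fewer than 112 counts in a library, and except for ABCA1 all stay within 0.5 of 0.

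Summed over their members, the regulators were nearly level between the groups, at 4108 ± 43.4 normalized counts with si-Control and 4084 ± 98.9 with si-CITED2 (SD, n = 3). The mevalonate arm was at 9854 ± 349 and 9954 ± 150. The sterol arm was at 9174 ± 172 and 9578 ± 110, which is 4.41% higher with si-CITED2 and without overlap (8982 to 9316 against 9468 to 9687). The fatty acid arm was at 31210 ± 440 and 32780 ± 645, or 5.04% higher, again without overlap (30720 to 31560 against 32350 to 33520). The genes that move cholesterol were at 3984 ± 172 and 4596 ± 48, or 15.4% higher. These sums are dominated by the most counted genes, such as ACLY in the fatty acid arm, and were not tested. Their differences came largely from single called genes. The largest was that of SCD in the fatty acid arm (mean 4227 with si-Control, 5460 with si-CITED2). In the sterol arm it was that of CYP51A1 (2350 and 2720), and among the genes that move cholesterol that of ABCA1 (384.2 and 731.2). The sums thus count these calls again.

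A further 73 genes of the same pathways were listed beside the 33, and 70 of them were in the fit. Of these, 10 rose and 6 fell, which together is 22.9% against the background of 17.4%. The counts changed when a library was left out. Without si-Control replicate 3, 3 fell, and without si-CITED2 replicate 1, 2 fell. Without si-CITED2 replicate 2, 5 rose and 3 fell, and without si-CITED2 replicate 3, 6 rose. Leaving out a library also changed the calls over all fitted genes, from 1527 higher and 1319 lower to 1135 higher and 881 lower without si-CITED2 replicate 2. The median log2 fold change of the 70 genes was 0.02. Only 1 of 11 fitted genes of sterol and isoprenoid synthesis rose, MSMO1. Among 12 genes that sense sterols or process SREBP, 2 rose and 3 fell. Those that fell included ERLIN1 (-0.19) and ERLIN2 (-0.3), and those that rose were SYVN1 (0.25) and PGRMC1 (0.21), all as log2 fold changes. The proteases that cut SREBP were at 0.07 for MBTPS1 and 0.06 for MBTPS2, and INSIG2 was at 0.01, none past the threshold. Of 29 genes of fatty acid and lipid building, 2 rose and 1 fell. The shares called in these lists were, in that order, 9.09%, 41.7% and 10.3%, against 17.4% of all fitted genes.

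Only 3 of these genes had both an adjusted p under 0.05 and a log2 fold change of at least 0.5 in either direction, and all 3 rose. ACSL4, which activates arachidonate and other long polyunsaturated fatty acids, had 1552, 1564 and 1597 normalized counts with si-Control and 2549, 2575 and 2459 with si-CITED2 (log2 fold change of 0.69, adjusted p = 5.34e-08). GRAMD1B, a carrier of cholesterol from the plasma membrane to the endoplasmic reticulum, had 7294, 7449 and 7679 against 11420, 10710 and 10890 (0.56, adjusted p = 2.49e-07). NPC2, the soluble partner of NPC1 in the lysosome, had 584.8, 588.5 and 601.3 against 842.7, 838 and 871 (0.53, adjusted p = 1.95e-05). None of these groups overlapped. Of the 18 genes of uptake, export and storage to which GRAMD1B and NPC2 belong, 5 rose and 2 fell. That is 38.9%, against 17.4% of all fitted genes.

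The LXR genes themselves were looked up beside ABCA1 and MYLIP, after their values had been seen. NR1H3, which encodes LXRα, had 339.5, 353.4 and 340 normalized counts with si-Control and 534.3, 431.9 and 473.3 with si-CITED2. This gave a log2 fold change of 0.47 (SE 0.0923, adjusted p = 0.00155) without overlap. NR1H2, which encodes LXRβ, had 1378, 1218 and 1279 against 1103, 1077 and 1150, a log2 fold change of -0.22 (adjusted p = 0.0229). The NR1H2 call was lost without si-Control replicate 1 (adjusted p = 0.0767), si-CITED2 replicate 1 (adjusted p = 0.0528) or si-CITED2 replicate 2 (adjusted p = 0.105). SCD, described above with its rise of 0.37, is also a known target of LXR. So are SREBF1 (-0.08, adjusted p = 0.564) and FASN (-0.13, adjusted p = 0.142), described above, which did not pass. Of 3 further targets looked up, none passed the test. ABCG1 was at 0.36 (95% interval -0.131 to 0.843, adjusted p = 0.343), with at most 69.02 normalized counts in a library, LPCAT3 at -0.09 and SMPDL3A at -0.02. These are not all known targets of LXR, and activity of LXR or SREBP proteins was not measured.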

How the data were processed

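RNA-seq libraries of 3 si-Control and 3 si-CITED2 cultures of PC3 cells were analyzed, grouped and numbered by their sample titles. The authors deposited unnormalized read counts, 1 gene table for each library. The submitters' processing notes name TopHat, edgeR and hg19, while the counting program, the annotation and the handling of strand and shared reads are not given in the sources used here. Depth was 19508925 to 28936374 counts, and replicates of a group differed by more than counting noise (lowest chi-square over its degrees of freedom 2.89). The legend calls the experiments independent, and no batch is named.

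For symbols on more than 1 line, the line with the highest sum was used. Genes passing filterByExpr were scaled by TMM and tested by the quasi-likelihood method of edgeR 4.0.16 (R 4.3.3), without pairing of replicates, with Benjamini-Hochberg adjustment over 16314 genes. Standard errors and 95% intervals came from the F statistics and are per gene. Normalized counts are counts at a common effective library size. Alternatives were DESeq2 1.42.0, DESeq2 size factors, library size alone, no filter, at least 10 counts in every library, a block for the replicate number, omission of each library, and summed lines. On simulated counts for 16314 genes, 99 of 100 planted log2 changes of 1 and 86 of 100 of 0.5 were recovered, and 4.15% of calls were false. The simulation gave all genes the same variability between replicates and planted changes only in well-counted genes, so these rates need not hold for the real data. Apart from ABCA1, every call among the 33 genes was smaller than 0.5. Promoters came from RefSeq (GRCh38.p14) and exon lengths from GENCODE 29 (GRCh38). The 33 genes and the further lists were chosen with earlier results of these data known. All 33 genes were described, further genes were named at an adjusted p under 0.05 and an absolute log2 fold change of at least 0.5, and any others were chosen after their values were seen. Some genes of these lists are counted but not reported by name here.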

Additional observations from a re-analysis of the deposited data

How the results depend on the processing

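Over the 33 genes and 13 alternatives, 395 of 429 values kept their direction and their side of the threshold, 22 lost a call, 2 gained one and 10 changed sign. Of the 9 calls, ABCA1, NSDHL, SCD and FADS2, 4 in all, were kept under every alternative. The count of lower genes, 2 at first, was 1 with DESeq2 and 1 with the replicate block, and 0 to 2 when a replicate was left out; the count of higher genes was 5 to 7 then. The median log2 fold change of the 33 genes was -0.013 with library size alone and -0.017 to 0.046 when a replicate was left out, so its sign has no weight. Among the further pathway genes, leaving out a replicate gave 2 to 5 lower and 5 to 9 higher genes. CITED2 had a log2 fold change of 0.221 (adjusted p = 0.0518) with library size alone and 0.173 to 0.291 when a replicate was left out. With library size alone SCAP was at -0.013. The other sign changes came from leaving out a replicate, in genes that never passed: SREBF1 (-0.138 to 0.003), SCAP (-0.047 to 0.041), ACAT2 (-0.038 to 0.008), MVK (-0.053 to 0.112), FDPS (-0.042 to 0.046) and DHCR7 (-0.119 to 0.002). Same-numbered replicates did not deviate together (r = -0.038, 0.034 and -0.011 across genes). This cannot show whether same-numbered cultures were handled together. The replicate block lost the calls of IDI1 (0.219, adjusted p = 0.0584) and EBP (-0.209, adjusted p = 0.0615) and kept the other 7. It also lost that of MSMO1 (adjusted p = 0.0544). The cause of these shifts was not tested. With 3 cultures a group, single-gene permutation tests cannot go below 0.1, and changes near 0.1 on the log2 scale lie within the intervals of most of the 33 genes.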
